A study of Mus musculus with 2 samples.

Results

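The AP-1 and ATF transcription factors described here are 10 genes, Fos, Fosb, Fosl2, Jun, Junb, Jund, Atf3, Batf2, Maff and Mafk, chosen by name from the 22060 genes of the deposited count table. All 10 were found by their Ensembl identifiers, and 9 had a summed count of at least 20 over the libraries, the level at which a gene was treated as measured. Fosb did not reach it. The RNA was that of bone marrow-derived macrophages (BMDM), which arise when C57BL/6 marrow is kept in M-CSF, a macrophage growth factor, here over 7 days. There was 1 library of cells with STAT2 T403A, a threonine-to-alanine substitution in STAT2, and 1 library of wild-type (WT) cells. STAT2 is a subunit of the factor that type I interferon activates. Whether the WT mice were littermates of the T403A mice is not stated in the labels. The mice were 8 weeks old, the cells received no treatment, and both libraries are labelled 0 h. The number of animals behind each library is not given in the sources used here. With 1 library a group there are no replicates to compare and hence no test, and what follows describes this pair of libraries, which need not stand for their genotypes.

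The proteins of this group share the bZIP fold, a basic stretch that reads DNA followed by a leucine zipper that joins 2 of them. FOS proteins cannot pair with themselves and join JUN proteins, which also pair with each other, and these dimers are AP-1. ATF3 and the BATF proteins pair with JUN proteins, while the small MAF proteins MAFF and MAFK lack an activation domain and join partners such as NRF2 and BACH1. In macrophages Fos, Jun, Junb and Atf3 are known as genes switched on within minutes of growth factor, stress or microbial signals through MAP kinases, and Batf2 as a gene induced by interferon.

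Dimers of ATF, CREB and JUN proteins bind the palindrome TGACGTCA and its relatives, and the members' own promoters were searched for such letters, with TGACGT and TGACNTCA added after the promoters had been read. Below are the 100 bases before the RefSeq start of the 4 members with a match, from RefSeq on GRCm38.p6, read 5′ to 3′ on the gene's strand. Capitals mark TGACGT on either strand, where ACGTCA is its reverse complement, or TGACNTCA.
Fos, plus strand, chr12:85473790-85473889: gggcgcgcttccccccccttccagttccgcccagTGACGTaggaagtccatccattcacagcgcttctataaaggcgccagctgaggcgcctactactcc
Jun, minus strand, chr4:95052223-95052322: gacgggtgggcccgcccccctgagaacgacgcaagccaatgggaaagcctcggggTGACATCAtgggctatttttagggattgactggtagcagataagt
Atf3, minus strand, chr1:191183334-191183433: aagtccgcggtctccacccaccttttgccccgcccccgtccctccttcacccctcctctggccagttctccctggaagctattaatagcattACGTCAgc
Maff, the middle of its 3 RefSeq starts, plus strand, chr15:79347420-79347519: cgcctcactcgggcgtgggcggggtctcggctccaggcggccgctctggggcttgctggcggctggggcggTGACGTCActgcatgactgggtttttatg

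The table of promoters held 9 of the 10 members, all but Batf2, with 3 windows for Maff and 1 for each of the others. The 250 bases before each start were searched on both strands, and a gene was counted once if any of its windows held the word. TGACGT was found in 3 of these 9 members, Fos, Atf3 and Maff, and in 7.29% of all 27025 genes of the table. TGACNTCA was found in Jun and in 2 windows of Maff, and in 8.55% of all genes. The full palindrome TGACGTCA, which contains both of these words, was found in Maff and in 1.77% of all genes. The AP-1 word TGANTCA was in none of the 9 members' windows, against 7.82% of all genes, and neither was the CArG box, the site of serum response factor (1.62% of all genes), or TTCNNNGAA, the word of STAT dimers (8.13%). The core of the interferon-stimulated response element, a pair of GAAA repeats 2 bases apart, was found in Fosl2 and in 3.46% of all genes, and TGCTGA, the MAF half-site, in Mafk and in 18.0% of all genes. These matches describe letters in a window and are not evidence of a bound site. Bases further than 250 before a start were not searched, so a word absent here may lie further away, for Fos as for the others. The RefSeq start of Jund lies 1210 bases before the gene start of the GENCODE M21 annotation. Inside it lie those of Fosl2, by 671 bases, of Atf3, by 34706 bases, and of the Maff window shown, by 899 bases. The last 7 of the bases shown for Atf3, which include part of its ACGTCA, are in an exon of Atf3 in that annotation.

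Most of the AP-1 and ATF genes had fewer transcripts in the T403A library. Of the 9 measured members, 6 were lower by at least 1.5-fold with a 95% counting interval that left out 1 (Fos, Fosl2, Junb, Atf3, Batf2 and Maff), none was higher, and 3 were called in neither direction. Of these, Jun and Mafk had intervals that left out 1 but ratios under 1.5-fold, and Jund had an interval that held 1. Over all 11199 measured genes, 10.8% were lower and 13.5% were higher by the same rule. The median log2 ratio of the 9 members, T403A over WT, was -0.74, and that of all measured genes was 0.01. Abundant genes leaned lower: of the 2213 with a mean of at least 100 CPM, a set chosen after the plot of ratio against level was seen, 16.8% were lower and 5.38% were higher, and of the 4 members among them Fos, Junb and Atf3 were lower and Jun was called in neither direction. At 2-fold, 3 members were lower (Fos, Junb and Batf2) and none was higher, against 6.08% of all measured genes lower and 7.21% higher. Scaled by library totals, which shift the middle of all ratios up by 0.19 on the log2 scale, 4 members were lower at 1.5-fold (Fos, Junb, Atf3 and Batf2) and none was higher, against 7.95% lower and 20.4% higher. The members were chosen with earlier results of these data known, so these counts are a description. In RNA from a whole culture, fewer cells that express a gene and less RNA per cell cannot be told apart. Levels below are CPM, counts relative to a library size scaled by TMM, a method that assumes most genes to be at equal levels in both libraries, and each bracketed range is the exact 95% interval for counting error only.

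**Figure D1:**
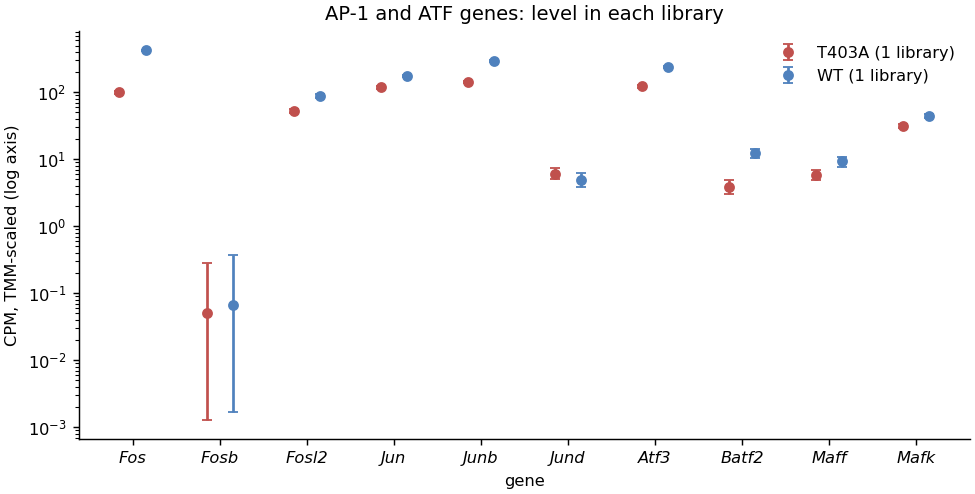
CPM of the 10 genes in the T403A library (left point of each pair) and the WT library (right point) on a log axis, with exact 95% Poisson intervals as bars. Fos stands at 99.5 CPM in T403A and 421 CPM in WT, and Fosb rests on 1 count in each library.

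Fos showed the largest difference of the 9 measured genes under TMM and under each other scaling tried. It encodes the founding FOS protein, the partner that gives AP-1 dimers with JUN their high affinity for DNA, and lies on chromosome 12 (85473890 to 85477273, plus strand, GRCm38). Its count was 1984 in the T403A library and 6319 in the WT library, which is 99.5 CPM (95.2 to 104) in T403A and 421 CPM (411 to 432) in WT. Fos was 4.23-fold lower in T403A (4.02 to 4.45), and 2.29% of measured genes had a lower ratio. The promoter match shown above for Fos lies 66 to 61 bases before its start.

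Fosl2, which encodes FRA-2, a FOS protein without the strong activation domain of FOS, was lower by less. It lies on chromosome 5 (32135801 to 32157842, plus strand) and had 1053 counts in T403A and 1324 in WT. These are 52.8 CPM (49.7 to 56.1) in T403A and 88.3 CPM (83.6 to 93.1) in WT, a 1.67-fold lower level in T403A (1.54 to 1.81). Scaled by library totals the difference was 1.46-fold and no longer met the rule. Fosb, on chromosome 7 (19302696 to 19310051, minus strand), had 1 count in T403A and 1 in WT, 0.0501 CPM (0.00127 to 0.279) and 0.0667 CPM (0.00169 to 0.371). No fold is given for Fosb because its count in each library lies under a set floor of 3 counts.

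The 3 JUN genes did not move by the same amount. Junb, whose protein is a weaker activator than JUN and can oppose it, lies on chromosome 8 (84974484 to 84978718, minus strand). It had 2854 counts in T403A and 4414 in WT, or 143 CPM (138 to 148) in T403A and 294 CPM (286 to 303) in WT, and was 2.06-fold lower in T403A (1.96 to 2.16). Exons of Prdx2 on the opposite strand cover 7.5% of the exon bases of Junb, and since the strand setting of the counting is not given in the sources used here, reads of such pairs cannot be told apart.

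Jun encodes the main JUN activator and lies in a single exon on chromosome 4 (95049034 to 95052222, minus strand). It had 2357 counts in T403A and 2608 in WT, or 118 CPM (113 to 123) in T403A and 174 CPM (167 to 181) in WT. The ratio of 1.47-fold lower in T403A (1.39 to 1.56) fell just short of the 1.5-fold rule, while its interval left out 1. An antisense RNA gene, Junos, covers 7.3% of its bases. Jund, the JUN gene known for steady expression in resting cells, was the 1 measured member with a ratio above 1. With 122 counts in T403A and 74 in WT it stood at 6.12 CPM (5.08 to 7.31) in T403A and 4.93 CPM (3.87 to 6.19) in WT, a ratio of 1.24 whose interval (0.922 to 1.68) spans no difference. The antisense gene model Gm11175, which has no row in the count table used here, covers 52.6% of the single exon of Jund (chromosome 8, 70698949 to 70700616, plus strand), so its count carries a larger limit than those of Jun and Junb.

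**Figure D2:**
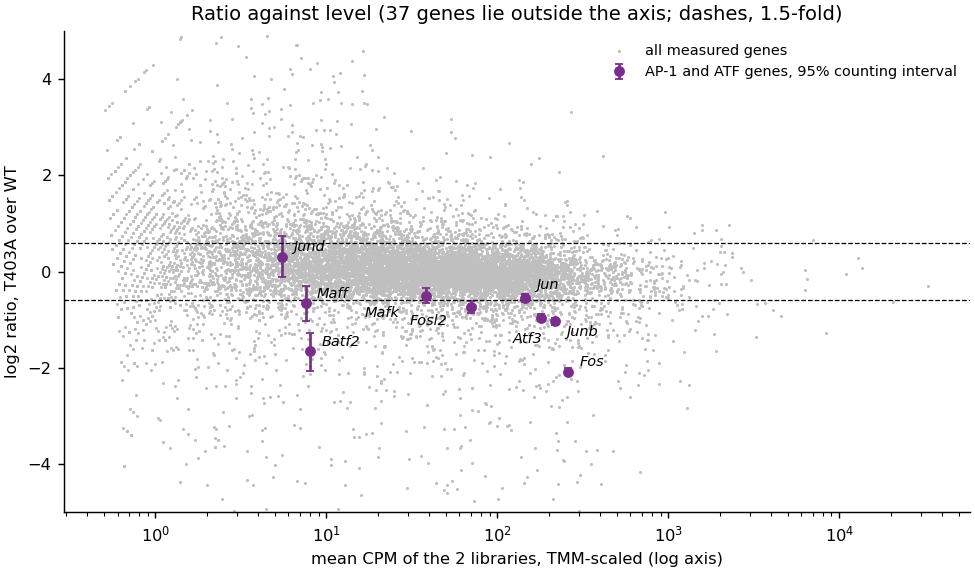
Log2 ratio of T403A over WT against the mean CPM of the libraries (log axis) for all 11199 measured genes (grey) and the 9 measured AP-1 and ATF genes (purple, with 95% counting intervals), and dashed lines at 1.5-fold. Fos lies lowest of the 9 at -2.08 and Jund highest at 0.31. The axis leaves out 37 genes with larger ratios.

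Atf3 and Batf2 were both lower in T403A. ATF3 is a stress-induced factor that as a homodimer represses many of its targets, among them inflammatory cytokine genes in macrophages. Atf3, on chromosome 1 (191170296 to 191218039, minus strand), had 2443 counts in T403A and 3580 in WT, or 123 CPM (118 to 127) in T403A and 239 CPM (231 to 247) in WT. It was 1.95-fold lower in T403A (1.85 to 2.05), and 6.48% of measured genes had a lower ratio. The ACGTCA of its promoter ends 3 bases before the start.

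Batf2, on chromosome 19 (6140983 to 6172476, plus strand), encodes a BATF protein that acts with IRF1 in activated macrophages. Its counts were 77 in T403A and 184 in WT, which is 3.86 CPM (3.05 to 4.83) in T403A and 12.3 CPM (10.6 to 14.2) in WT. Batf2 was 3.18-fold lower in T403A (2.42 to 4.20), the largest difference after Fos. Exons of Arl2 on the opposite strand cover 2.0% of its exon bases. Stat2 itself, the gene that carries the substitution, was at 84.4 CPM in T403A and 376 CPM in WT, 4.46-fold lower in T403A (4.22 to 4.71). A change of 1 amino acid need not change a read count, so Stat2 does not check the labels.

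Of the small MAF genes, Maff was lower in T403A and Mafk fell short of 1.5-fold. Maff, on chromosome 15 (79346621 to 79359076, plus strand), had 117 counts in T403A and 139 in WT, or 5.87 CPM (4.85 to 7.03) in T403A and 9.27 CPM (7.79 to 10.9) in WT. The ratio was 1.58-fold lower in T403A (1.23 to 2.04), and it dropped below the 1.5-fold rule with library totals and with upper quartile scaling. Mafk, on chromosome 5 (139791513 to 139802653, plus strand), had 629 counts in T403A and 670 in WT, or 31.5 CPM (29.1 to 34.1) in T403A and 44.7 CPM (41.3 to 48.2) in WT. Mafk stood 1.42-fold lower in T403A (1.27 to 1.58), and exons of Tmem184a on the opposite strand cover 4.3% of its exon bases. Mafg, the third small MAF gene, was at 178 CPM in T403A and 212 CPM in WT and was likewise called in neither direction.

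To compare the genes with one another, counts were divided by the deposited gene length and given as TPM, the usual length-corrected level within a library. In the T403A library Junb was the most abundant member at 226 TPM (218 to 234), followed by Atf3 at 206 (198 to 215), Fos at 154 (147 to 160) and Jun at 135 TPM (129 to 140). Then came Mafk at 29.3, Fosl2 at 19.8, Jund at 13.3, Maff at 8.21 and Batf2 at 5.56 TPM, where the intervals of Maff (6.79 to 9.84) and Batf2 (4.39 to 6.95) overlapped. In the WT library Fos came first at 540 TPM (527 to 554), followed by Junb at 386 (374 to 397), Atf3 at 334 (323 to 345) and Jun at 164 TPM (158 to 171). Mafk at 34.5 and Fosl2 at 27.5 TPM were next in WT, followed by Batf2 at 14.7 (12.6 to 16.9), Maff at 10.8 (9.06 to 12.7) and Jund at 8.92 TPM (7.00 to 11.2). The intervals of Batf2 and Maff overlapped, as did those of Maff and Jund. Fosb was last in both libraries. Fos stood behind Junb and Atf3 in T403A and ahead of both in WT. The order of the low members also differed, with Jund, Maff and Batf2 in T403A and Batf2, Maff and Jund in WT.

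Fos made up 19.3% of the summed TPM of the 10 genes in T403A and 35.5% in WT. The shares of Junb (28.3% in T403A and 25.4% in WT), Atf3 (25.9% and 22.0%) and Jun (16.9% and 10.8%) were larger in T403A. Within the FOS family of Fos, Fosb, Fosl1 and Fosl2, Fosl2 held 11.3% of the TPM in T403A and 4.81% in WT. Summed TPM of the FOS family stood to that of the JUN family at 0.469 in T403A and 1.02 in WT. Jund is part of the JUN sum and of the TPM of the 10 genes. The antisense limit on the count of Jund, given above, applies to these values and to its place in the order. Shares and ratios of this kind are taken within a library and do not depend on how the libraries are scaled to each other.

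**Figure D3:**
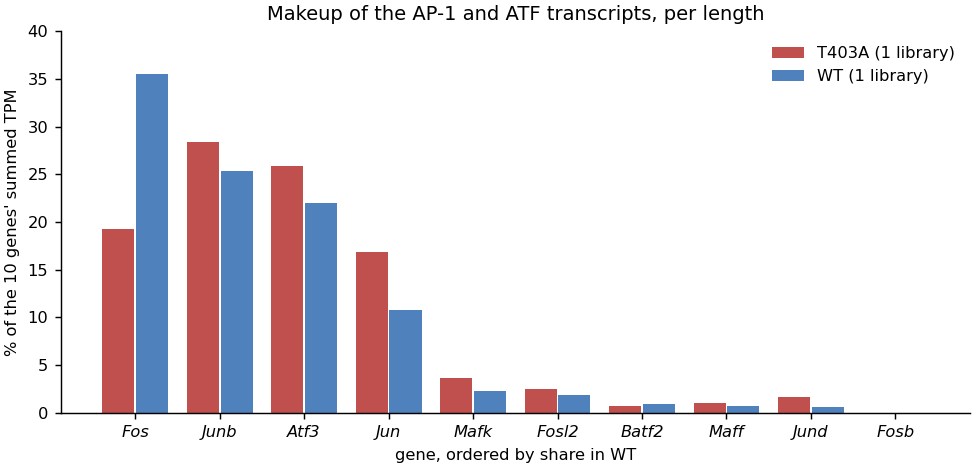
Share of each gene in the summed TPM of the 10 AP-1 and ATF genes, T403A library (left bar) and WT library (right bar), in percent. The Fos bar is 19.3% in T403A and 35.5% in WT, and the bars of Junb, Atf3 and Jun are taller in T403A.

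The members were also compared in pairs by the number of counts of one gene per count of the other within a library. Of the 36 pairs of measured members, 30 had a ratio that differed between the libraries by more than its 95% counting interval, which was not adjusted for the number of pairs. These pairs reuse the counts of the members given above. The share among pairs of other genes was not computed, so the count does not set the members apart. There were 0.842 counts of Fos per count of Jun in T403A and 2.42 in WT, a 2.88-fold lower ratio in T403A (2.67 to 3.11). Relative to Junb, Fos was 2.06-fold lower (1.92 to 2.21), and relative to Atf3 it was 2.17-fold lower (2.02 to 2.34). Relative to Batf2, the interval of Fos came close to no difference, at 1.33-fold lower (1.00 to 1.76). Junb and Atf3 kept nearly the same ratio, with 1.17 counts of Junb per count of Atf3 in T403A and 1.23 in WT, 1.06-fold lower in T403A (0.984 to 1.13). The other pairs whose interval spanned no difference were those of Maff with Fosl2, Jun, Atf3 and Mafk, and Jun with Mafk.

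**Figure D4:**
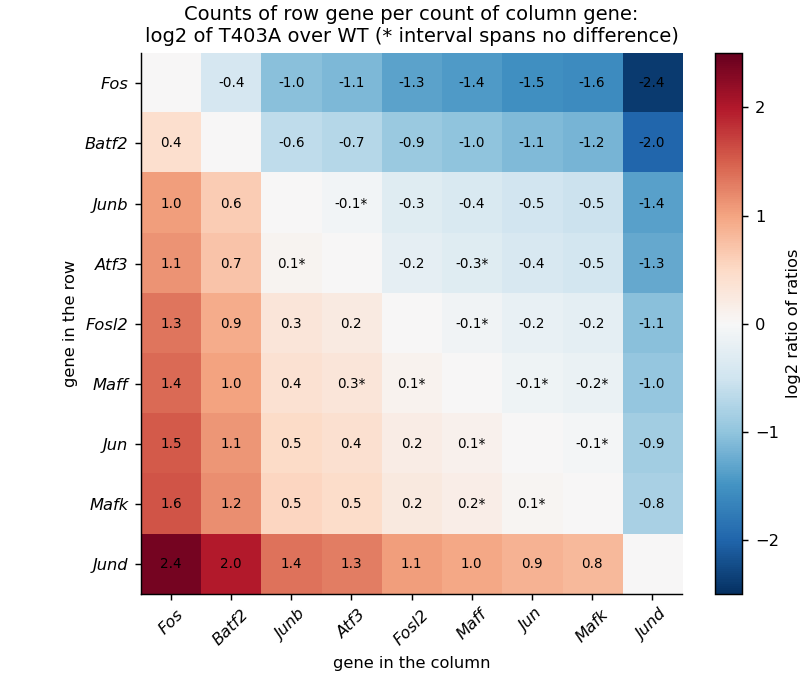
Log2 of T403A over WT for the counts of the row gene per count of the column gene, for the 9 measured AP-1 and ATF genes ordered by their own ratio, where blue marks a lower ratio in T403A. The Fos row is blue throughout, which follows from its ratio being the lowest of the 9. Asterisks mark the 6 pairs whose 95% counting interval spans no difference.

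Most other bZIP genes were called in neither direction, as were 8470 of all 11199 measured genes. Of 14 measured other members of the FOS, JUN, ATF, BATF and MAF families, 3 were lower and 1 was higher, with a median log2 ratio of -0.28. Over all measured genes 10.8% were lower and 13.5% were higher. Maf was at 391 CPM in T403A and 531 CPM in WT and was called in neither direction. Fosl1, encoding FRA-1, was among the lower genes and had 19 counts in T403A and 33 in WT, with a log2 ratio of -1.18, and exons of Ccdc85b on the opposite strand cover 57.2% of its annotated bases. Jdp2, an inhibitor of AP-1, was also lower (log2 ratio -0.68), though within 1.5-fold with library totals and with upper quartile scaling, and the higher gene was Atf5 (1.00).

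Among the 5 measured partners of the small MAF proteins, only Bach2, a repressor, was lower, with 12 counts in T403A and 21 in WT. Its call was lost with library totals and with the 99% interval, and with library totals Nfe2 was called higher in its place. Nfe2l2, which encodes NRF2, was at 690 CPM in T403A and 662 CPM in WT, and Nfe2l1 at 239 CPM in T403A and 250 CPM in WT. Of 19 measured genes of the CREB, C/EBP and PAR groups, 3 were lower and 3 were higher (median log2 ratio 0.00). With library totals 1 was lower and 5 were higher (median 0.19). Over all measured genes 10.8% were lower and 13.5% were higher, and with library totals 7.95% and 20.4%. Cebpb, a C/EBP factor of inflammatory macrophages, was at 26.6 CPM in T403A and 87.6 CPM in WT, and the clock output gene Dbp was at 13.0 CPM in T403A and 2.60 CPM in WT. Exons on the opposite strand cover 20.7% of Cebpb and 18.0% of Dbp. The remaining called genes were Creb5 and Ddit3, which were lower but within 1.5-fold with library totals, and Tef and Crebl2, which were higher. A further Ensembl identifier named Ddit3 has counts of its own, which were not added. It covers 6.1% of the exon bases of the one used. Xbp1 (240 CPM in T403A and 173 CPM in WT) and Cebpd (115 CPM in T403A and 97.0 CPM in WT) were called in neither direction, though Xbp1 was higher with library totals. Of the IRF partners of BATF proteins, Irf4 was higher (6.32 CPM in T403A and 3.53 CPM in WT), and Irf8 and Irf1 were called in neither direction. Irf1 was at 68.6 CPM in T403A and 100 CPM in WT, 1.46-fold lower in T403A (1.35 to 1.57) and just under the 1.5-fold rule, and Irf8 was at 259 CPM in T403A and 290 CPM in WT.

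Most kinases and factors that act on AP-1 genes were called in neither direction, as were 8470 of all 11199 measured genes. In the MAP kinase cascade 1 of 21 measured genes was lower and 1 was higher (median log2 ratio -0.10). Over all measured genes 10.8% were lower and 13.5% were higher. With library totals the medians of the MAP kinase cascade (0.09), the small MAF partners (0.13) and the IRF partners (0.03) were above 0 in place of below it. Map2k1, the kinase MEK1 above ERK, was at 113 CPM in T403A and 214 CPM in WT, and Map2k6, a kinase above p38, was at 4.16 CPM in T403A and 0.800 CPM in WT. The p38 gene Mapk14 (371 CPM in T403A and 360 CPM in WT) and its target kinase gene Mapkapk2 (661 CPM in T403A and 581 CPM in WT) were called in neither direction. Transcript levels do not measure kinase activity. Of 9 serum response, ternary complex and MEF2 factors, Elk3 (42.9 CPM in T403A and 75.9 CPM in WT) and Mef2a (316 CPM in T403A and 521 CPM in WT) were lower, none was higher, and Mef2d (133 CPM in T403A and 176 CPM in WT) was called in neither direction. With library totals Mef2a was not called and Mrtfa was higher, and Mrtfa was also higher with upper quartile scaling.

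Among 9 genes for turnover of AP-1 proteins and transcripts, Trib1 and Zfp36 were lower and none was higher, against 10.8% lower and 13.5% higher over all measured genes. Trib1, a scaffold of the COP1 ubiquitin ligase, was at 22.4 CPM in T403A and 69.8 CPM in WT. Zfp36 encodes tristetraprolin, which speeds decay of transcripts with AU-rich elements, and was at 117 CPM in T403A and 260 CPM in WT. Its relative Zfp36l2 was at 751 CPM in T403A and 731 CPM in WT.

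Genes known as AP-1 targets went both ways, with more of them lower. Of 21 measured, 10 were lower and 3 were higher, against 10.8% lower and 13.5% higher over all measured genes, and the median log2 ratio was -0.76. The cytokine gene Il1b was at 4.46 CPM in T403A and 97.1 CPM in WT, and the membrane protease gene Mmp14 was at 29.6 CPM in T403A and 452 CPM in WT. Spp1, encoding osteopontin, was higher at 1347 CPM in T403A and 567 CPM in WT, with the limit that a gene model on the same strand covers 18.8% of its exon bases. The other lower genes were Mmp9, Mmp13, Acp5, Dusp1, Ccl2, Cd44, Ptgs2 and Ccnd1, and the other higher genes were the protease genes Mmp12 and Ctsk. Vim, the intermediate filament gene, was at 1091 CPM in T403A and 799 CPM in WT and was called in neither direction. With library totals Vim and Nfatc1 were higher too, and 10 of the 21 stayed lower. These genes answer to many factors besides AP-1, and whether AP-1 activity differed was not tested.

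For genes with antioxidant or MAF recognition elements, 4 of 13 were lower and 1 was higher (median log2 ratio -0.25). Among all measured genes 10.8% were lower and 13.5% were higher, and 16.8% and 5.38% of those with a mean of at least 100 CPM. With library totals and with upper quartile scaling, 3 of the 13 were lower and 1 was higher. The cystine transporter gene Slc7a11 was at 50.1 CPM in T403A and 110 CPM in WT, and the ferritin gene Fth1 was at 16083 CPM in T403A and 25054 CPM in WT, a difference within 1.5-fold with library totals and with upper quartile scaling. The quinone reductase gene Nqo1 was the higher one, at 34.4 CPM in T403A and 16.7 CPM in WT, the other lower genes were Hmox1 and Gsr, and the peroxiredoxin gene Prdx1 was at 2093 CPM in T403A and 2103 CPM in WT.

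**Figure D5:**
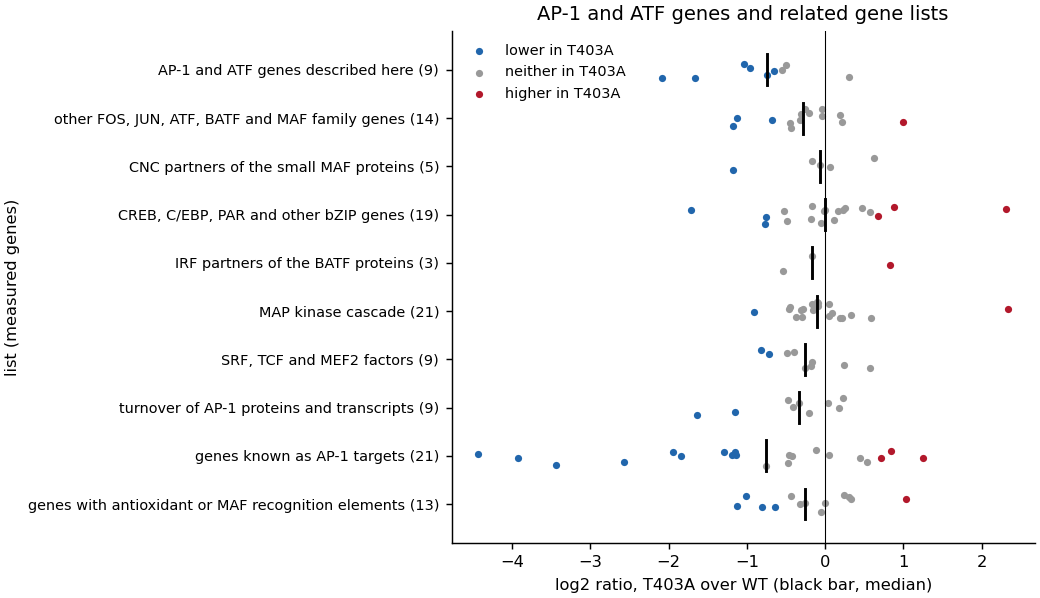
Log2 ratio of T403A over WT for each measured gene of the AP-1 and ATF group and of the related gene lists, with genes lower in T403A in blue, higher in red and neither in grey, and the median as a black bar. The AP-1 and ATF genes have a median of -0.74 and the AP-1 targets of -0.76, and the other lists lie between -0.34 and 0.00.

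The count total was 18658381 in the T403A library and 16033032 in the WT library, and mitochondrial transcripts took 2.46% of counts in T403A and 1.93% in WT. All 10 macrophage markers examined were measured, with a summed level of 39558 CPM in T403A and 51391 CPM in WT. Of these, 5, including Cd14, Fcgr1 and Itgam, were lower in T403A and 0 were higher. A gene model on the same strand covers 68.7% of the exon bases of Itgam. The other 5, among them Csf1r, Lyz2 and Cd68, were called in neither direction, and the ratio of Cd68 was 1.25. Lyz2 alone was at 29804 CPM in T403A and 36620 CPM in WT. Over all measured genes 10.8% were lower, and 16.8% of those with a mean of at least 100 CPM. The markers' median log2 ratio was -0.71, near the -0.74 of the measured AP-1 and ATF genes. Summed markers of dendritic cells, lymphocytes, mast cells and stroma each came to at most 3.06 CPM in T403A and 6.13 CPM in WT. Among the few that were measured, Pecam1 (2 counts in T403A and 40 in WT) and Xcr1 (6 and 19) were lower. Kit (23 counts in T403A and 4 in WT) was higher. Low sums do not show that the minor cells were the same in both cultures. Of 8 neutrophil markers, 5 were measured (173 CPM summed in T403A and 287 CPM in WT, of which Csf3r was 165 CPM in T403A and 280 CPM in WT), while Ly6g and Elane had no count in either library. Csf3r and Camp (10 counts in T403A and 22 in WT) were lower. S100a9 (77 counts in T403A and 28 in WT) and Ltf (64 and 25) were higher. The part of the lower macrophage markers in the AP-1 values was not tested.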

How the data were processed

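The authors deposited 1 table of whole-number read counts per Ensembl gene, with a gene length in bases, per the file headers. Per the submitters' processing notes, the tools were HTSeq 0.9.1, HISAT2, cutadapt 1.15 and DESeq 1.30.0 on GRCm38. Their roles, the annotation and the strand setting are not given there. The labels' protocols give TRIzol extraction and Illumina sequencing of total RNA.

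Columns were matched to samples by title. Symbols were found for 21969 of 22060 identifiers. Positions and exon overlaps come from GENCODE M21 (GRCm38), whose exon unions equal the deposited length for 96.9% of genes. Counts were scaled by TMM (edgeR 4.0.16, R 4.3.3). Ratios carry exact Clopper-Pearson intervals, levels exact Poisson intervals and pairs exact conditional odds ratio intervals (scipy 1.17.1), all for counting error only. Log2 ratios use a prior count of 0.5. Genes were called at 1.5-fold with a 95% interval that leaves out 1. Scoring was tested on simulated counts with counting error only, scaled by library totals. That test did not cover TMM scaling or variation between cultures.

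Members and lists were chosen with earlier results of these data known. From each list the text names the 2 largest called ratios and the 2 highest levels, and further genes were named after their values were seen. TGACGT and TGACNTCA were added after the promoters were read. Marker lists are given as sums, with some calls, counts and a median added after their values were seen. The values of 2 genes of the related lists are not reported here.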

Additional observations from a re-analysis of the deposited data

How the results depend on the processing

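Scaling by library totals gave a members' median log2 ratio of -0.55. The T403A over WT ratios were then 0.270 for Fos, 0.683 for Fosl2, 0.777 for Jun, 0.556 for Junb, 0.586 for Atf3 and 0.807 for Mafk, and 4 of 9 members were lower. With upper quartile scaling the ratios were 0.255 for Fos, 0.733 for Jun, 0.524 for Junb and 0.553 for Atf3, and 5 members were lower. At 2-fold, 3 members were lower. No member changed direction under DESeq2 size factors, library totals, upper quartile scaling or TMM without mitochondrial genes, and 6 members stayed lower with the 99% interval and with either change of the count filter. Shares of all measured genes called were not computed for upper quartile scaling, the 99% interval or the changed count filters. Of 144 recomputed list counts, 122 stayed within 1.5 times, and each of the others was a count of at most 5 genes. Order by CPM in place of TPM put Jun ahead of Fos in T403A and Fosl2 ahead of Mafk in both libraries. No paired analysis was possible because each group has 1 library, and no library could be left out. Depth limits Fosb, Jund, Batf2 and Maff most, with summed counts of 2, 196, 261 and 256.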
